A study of Homo sapiens with 9 samples.

Results

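The box H/ACA small nucleolar RNAs and the small Cajal body RNAs of U2-OS cells were described in total RNA sequencing data from clones with and without NCBP2 overexpression. Members were chosen by name as the genes whose GENCODE symbol starts with SNORA or SCARNA and that are not annotated as pseudogenes. The rule gave 238 of the 60609 genes in the count tables, 213 with a SNORA symbol and 25 with a SCARNA symbol, and used no measured value. Of these, 113 had at least 1 count on their own strand in at least 1 of 9 libraries, and 80 (65 SNORA, 15 SCARNA) had enough counts to be tested.

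U2-OS is an established human osteosarcoma cell line. NCBP2, which binds the cap of nuclear RNAs as part of a dimer with NCBP1, was overexpressed in 6 libraries. Clone A1 gave 3 of them and clone A4 the other 3, lettered A, B and C within a clone. The controls were 3 libraries from 3 clones with the empty vector, 1 library per clone. Neither the promoter of the transgene nor the origin of a clone's replicates (cultures grown apart or repeat libraries) is named in the labels. The NCBP2 arm therefore rests on 2 clones, and p-values measure the spread between these libraries, which may be technical.

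Box H/ACA RNAs fold into a pair of hairpins joined by a hinge, the H box, and end in an ACA trinucleotide close to their 3′ end. With dyskerin (DKC1), NOP10, NHP2 and GAR1 they form particles that turn chosen uridines of ribosomal RNA into pseudouridine. Small Cajal body RNAs guide the same reaction, or 2′-O-methylation by box C/D particles, on spliceosomal small nuclear RNAs, and some carry both kinds of domain. Most well-studied human RNAs of these classes are cut out of introns of host genes and carry no cap of their own, whereas SCARNA2 and SCARNA17 are known to be transcribed from promoters of their own.

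The RNAs that carry the results are shown in the sense direction, with coordinates on GRCh38 and the sequences of the GENCODE 44 gene models. SNORA73B (chr1:28508559-28508762, plus strand) and SNORA73A (chr1:28507366-28507571, plus strand), the 2 human U17 RNAs, lie in the host RCC1 and matched at 192 of 206 aligned positions (93.2%). SNORA53 (chr12:98599635-98599883, plus strand, in SLC25A3) varied most between libraries among the abundant members. SNORA37 (chr18:54222284-54222412, minus strand, in MBD2) had the smallest p-value between the clones. SCARNA5 (chr2:233275727-233276002, plus strand, in ATG16L1) had the highest level per length among the Cajal body RNAs that were counted (6 SCARNA members, SCARNA2 and SCARNA17 among them, were at 0 and lie wholly under exons of other genes). Capitals mark the 3′ ACA of the H/ACA RNAs and, in the mixed RNA SCARNA5, the match to TGATGA, the core of the C box.
SNORA73B: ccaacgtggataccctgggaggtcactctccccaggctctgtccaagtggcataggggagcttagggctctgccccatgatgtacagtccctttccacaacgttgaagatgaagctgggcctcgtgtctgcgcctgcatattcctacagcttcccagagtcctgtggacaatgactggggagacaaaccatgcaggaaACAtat
SNORA73A: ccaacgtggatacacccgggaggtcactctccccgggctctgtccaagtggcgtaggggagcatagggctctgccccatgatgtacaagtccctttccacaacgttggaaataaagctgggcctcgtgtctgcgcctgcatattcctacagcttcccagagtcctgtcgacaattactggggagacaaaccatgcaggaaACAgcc
SNORA53: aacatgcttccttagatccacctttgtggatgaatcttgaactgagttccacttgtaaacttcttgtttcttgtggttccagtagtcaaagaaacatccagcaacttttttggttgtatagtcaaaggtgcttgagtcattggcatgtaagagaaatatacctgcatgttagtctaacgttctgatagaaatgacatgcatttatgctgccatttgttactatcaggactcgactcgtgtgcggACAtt
SNORA37: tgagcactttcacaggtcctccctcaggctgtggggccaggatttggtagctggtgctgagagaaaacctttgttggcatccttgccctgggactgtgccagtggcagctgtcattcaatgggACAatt
SCARNA5: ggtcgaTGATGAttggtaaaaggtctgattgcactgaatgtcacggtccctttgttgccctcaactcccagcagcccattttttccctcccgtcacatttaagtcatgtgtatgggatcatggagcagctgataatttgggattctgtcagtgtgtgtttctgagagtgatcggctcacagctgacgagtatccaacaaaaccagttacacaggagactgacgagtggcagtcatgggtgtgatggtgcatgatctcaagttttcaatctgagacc

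The letters ACA stood exactly 3 bases before the annotated 3′ end, on the sense strand, in 142 of 213 SNORA members (66.7%) and in 14 of 25 SCARNA members (56%). The same letters stood there in 11.1% of 1252 other small RNA genes of like length and in 1.59% of 314 SNORD genes, which encode box C/D RNAs. TGATGA occurred anywhere on the sense strand in 3.29% of SNORA members, 44% of SCARNA members and 73.9% of SNORD genes. Among SNORA members the ACA was at that place in 72.3% of the 65 tested and in 64.2% of the 148 not tested. A missing match says only that the letters are not at that place of the gene model, as in SNORA53, whose ACA is followed by 2 bases.

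Members were counted in these libraries mainly where no exon of another gene covered them wholly. Of the 150 members with no shared exon, 57 were at 0 in all libraries, and of the 17 partly covered ones, 4 were. Of the 83 members inside a host gene with no exon of another gene over them and no near-identical copy in the genome, 73 had counts, 62 of them enough to be tested, and 10 were at 0 in all libraries. Of the 71 members wholly covered by an exon of another gene on the same strand, 64 (90.1%) were at 0 in all libraries. The tables set aside reads that fit more than 1 gene, and whether the annotation used for counting held the same exons is not given in the sources used here, so a 0 in such a member was not read as a missing RNA. Members with no host, no shared exon and no copy were also mostly at 0, in 34 of 43 cases.

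**Figure D1:**
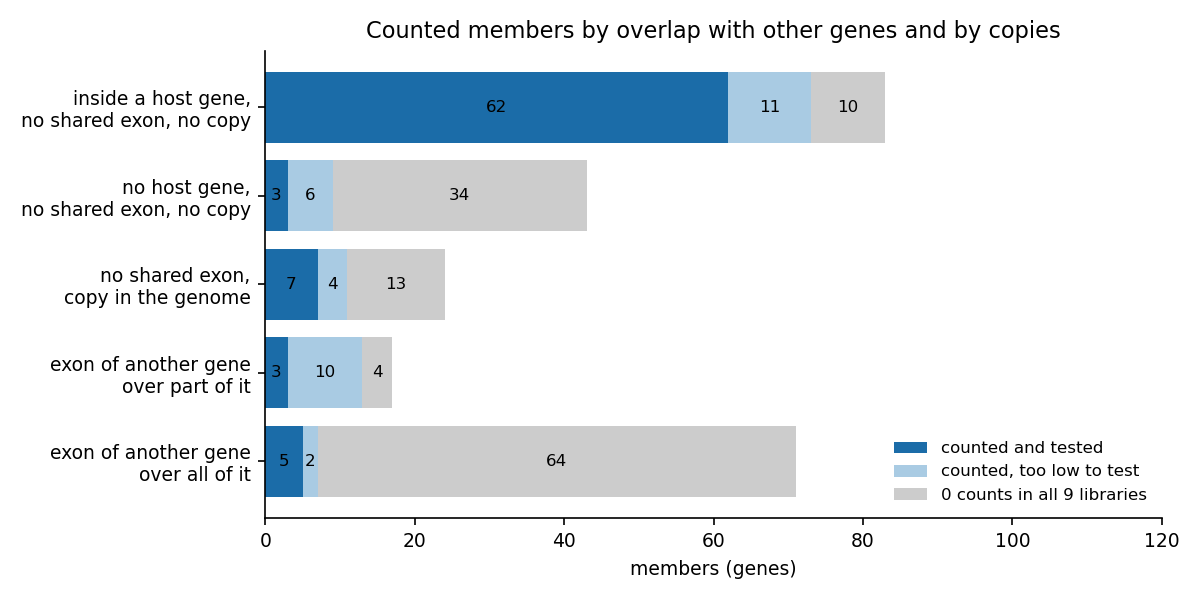
Number of members (x axis, genes) that were tested, counted but too low to test, or at 0 counts in all 9 libraries, by overlap with exons of other genes and by copies elsewhere in the genome (at least 95% identity over at least 90% of the length). Of the 71 members wholly covered by another gene's exon, 64 were at 0, against 10 of the 83 members inside a host with neither overlap nor copy.

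The U17 pair showed this split within 1 host. SNORA73B had 3553 to 11612 counts per library and no exon of another gene over it, whereas SNORA73A, which an exon of another gene covers, had 0 in all 9 libraries. SCARNA2 and SCARNA17, the Cajal body RNAs with promoters of their own, were likewise wholly covered by exons of other genes and at 0 in all libraries, so their response to NCBP2 was not measurable here. SCARNA13, SCARNA15 and SCARNA16 were covered and at 0 too. There were exceptions in the other direction, as SNORA26 in DANCR (2829 counts over the 9 libraries), SNORA75 (ENSG00000206885) in NCL (2162), SNORA13 in EPB41L4A-AS1 (834), SCARNA22 in NSD2 (621) and SNORA55 in PABPC4 (503) were wholly covered and still counted. Telomerase RNA (TERC), an H/ACA RNA outside the symbol rule, was at 0 in all libraries, and 438 of its 541 bases were covered by a second gene model that was also at 0.

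Few RNAs made up most of the signal. Over the 9 libraries the members summed to 169375 counts, 34.4% of them from SNORA73B and 62.8% from the 5 members with most counts. On the opposite strand the same genes held 4850 counts, 2.78% of the total over both strands, and 24 members had more counts there than on their own strand. Compared per length, SNORA73B led with 736.5 CPM (counts over 1e6 library counts) per kb on average, ahead of SNORA33 in RPS12 with 284 and SNORA23 in IPO7 with 172. SCARNA5 followed with 117 CPM per kb, SNORA79B in CCNB1IP1 with 104, SNORA53 with 103 and SCARNA1 in PPP1R8 with 73.7. SNORA26, SNORA40B in RAB3GAP1, SNORA22, SNORA75 (ENSG00000206885) and SNORA14B in TOMM20 completed the first 12, at 61.9 to 39.6 CPM per kb. Neighbours in this order overlapped in their ranges over libraries, and the lowest library of SNORA73B lay above the highest of every other member but SNORA33. SNORA22 and SNORA40B have near-identical copies, 1 and 5, so their level is uncertain.

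**Figure D2:**
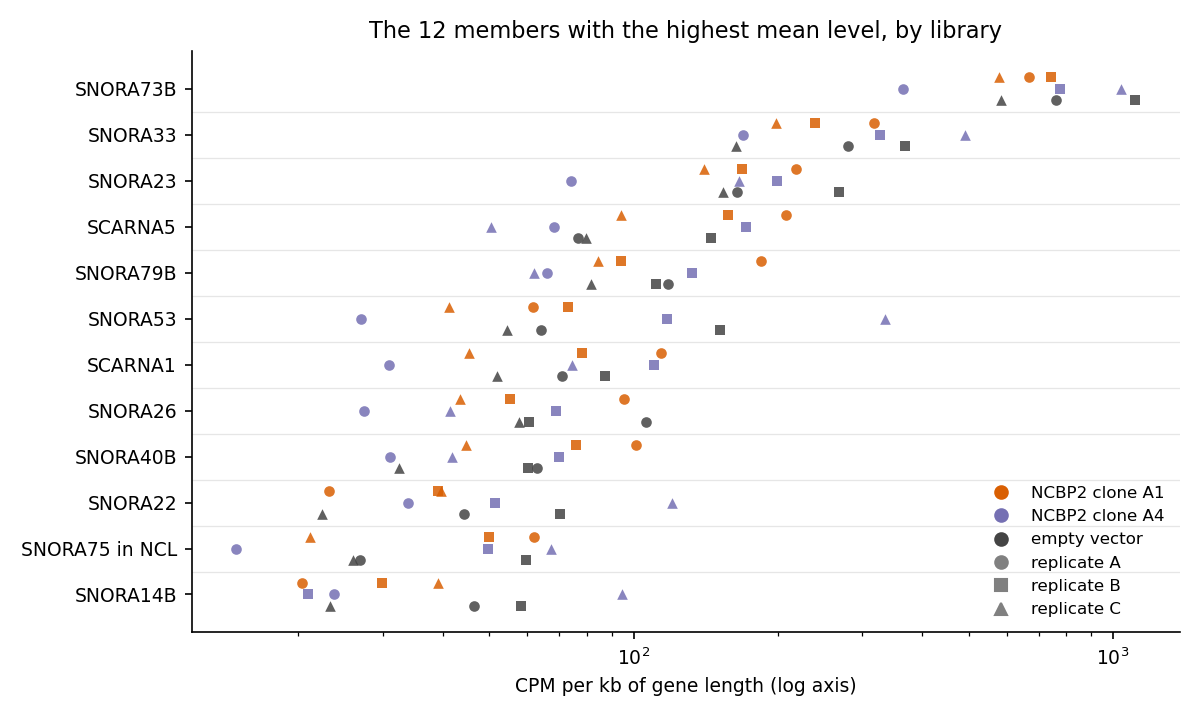
CPM per kb of gene length (x axis, log scale) of the 12 members with the highest mean level, one point per library, with colour for the group and shape for the replicate. SNORA73B lies to the right and overlaps only SNORA33, and the 3 groups overlap for each of the 12 RNAs.

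Members were found above and below their hosts. Of the 71 tested members with a host level, 27 were above the host per kb and the median ratio of member to host was 0.775. SNORA73B stood 38.0 times above RCC1 per kb and SCARNA5 34.4 times above ATG16L1, whereas SNORA33 was at 0.885 of RPS12. A member's reads are taken over a short gene model and the host's over spliced exons, so these ratios describe the count tables and not the numbers of molecules. Counts over a member inside a host intron also cannot tell the mature RNA from unspliced host RNA over the same bases. The share of such reads in the levels and fold changes given here was not tested. RNAs from 1 host also differed. SCARNA5 exceeded SCARNA6, both mixed RNAs within ATG16L1, by 18 times per kb on average, with a ratio per library from 6.80 (clone A4 replicate C) to 39.2 (clone A1 replicate A). In KANSL2, SNORA2A and SNORA2B were close on average (ratio 1.40), but the ratio per library ran from 0.580 to 9.81. TBRG4 held SNORA5A and SNORA5C, which differed 8.26 times on average, and SNORA5B, which was at 0.

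The libraries differed more from each other than the groups did. Fewer cells with an RNA and less of it per cell cannot be told apart in these bulk libraries. Summed over all members, clone A1 held 492 CPM in replicate A, 437 in replicate B and 344 in replicate C. For clone A4 the sums, in that order, were 244, 503 and 611 CPM, and for the empty vector 429, 592 and 325 CPM. Clone A4 alone thus held both the lowest and the highest library, 2.50 times apart, and the groups overlapped throughout. Clone A1 averaged 425 ± 74.9 CPM (SD, n = 3). Clone A4 averaged 453 ± 189 (SD, n = 3), and the vector clones averaged 449 ± 135 (SD, n = 3). The box C/D SNORD genes, summed the same way, ranged 1.48 times, from 69.4 CPM in clone A4 replicate A to 103 CPM in clone A4 replicate C.

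**Figure D3:**
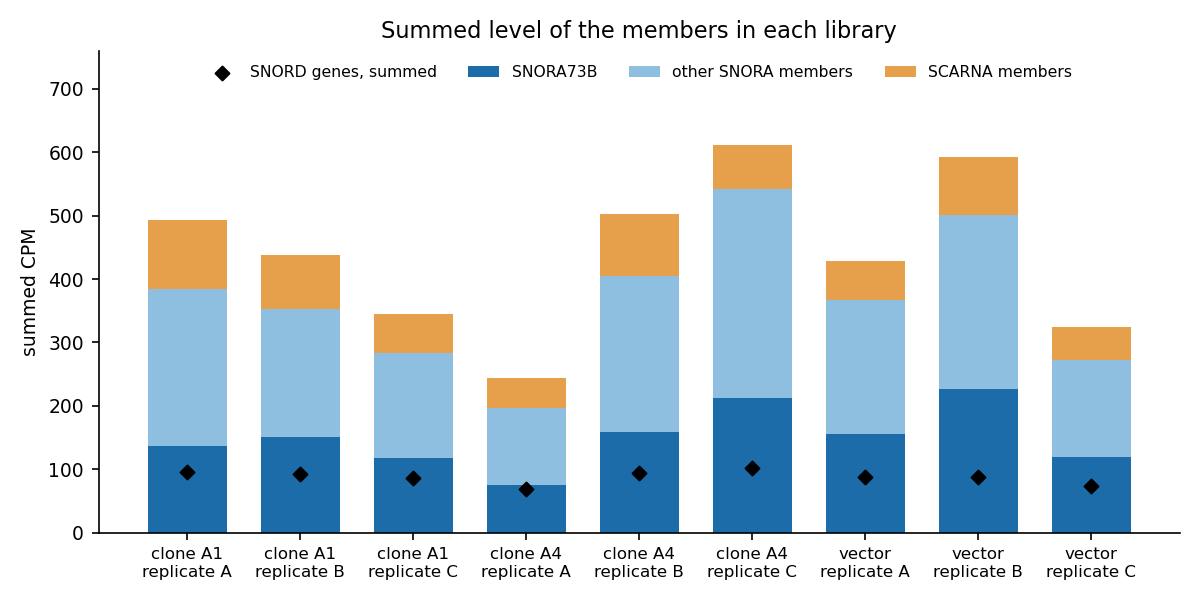
Summed CPM (y axis) of the members in each library as stacked bars for SNORA73B, the other SNORA members and the SCARNA members, with diamonds for the summed SNORD genes. The bars run from 244 CPM in clone A4 replicate A to 611 CPM in clone A4 replicate C, and no group lies apart.

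The difference between libraries was shared by many members. Clone A4 replicate C was the highest library for 23 of the 80 tested members and clone A4 replicate A the lowest for 23. Vector replicate C was the lowest for 13. Ties for the lowest value went to the library listed first, from clone A1 replicate A to vector replicate C. Of the 80 members, 13 were at 0 in at least 1 library. Clone A1 replicate A was taken as highest for 20 and as lowest for 22, a count that such ties can raise. That library had the fewest counts in genes, 29234022 against 37012934 to 50554080 in the others, and the largest share of uniquely aligned reads outside genes (52.4% against 32.4% to 50.2%). Clone A4 replicate A had the second largest such share, 50.2%, and vector replicate B the smallest, with a sum of 592 CPM but the highest value for only 5 members. The shares and the summed levels did not run in 1 order. Clone A1 replicate A, with the largest share, held 492 CPM. Clone A4 replicate C, with the highest sum, had a share of 46.5%, and vector replicate C, at 325 CPM, had 45.7%. The part of these library differences in the results was not tested. The median biological coefficient of variation, here edgeR's estimate of the spread between libraries of a group, was 0.476 for the members. It was 0.343 for all genes tested, and 72 of 80 members lay above that value. In the vector group the libraries are different clones, and members and other genes were not matched for level.

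The levels of NCBP2 and of cell markers were checked before the comparisons. NCBP2 reached 299 to 348 CPM in clone A1 and 456 to 1035 CPM in clone A4, against 90.6 to 98.4 CPM with the empty vector. Both clones stood above all vector libraries (adjusted p = 0.033 for clone A1 and 0.00042 for clone A4 by edgeR's quasi-likelihood test), while the test that pooled the clones gave an adjusted p of 0.12. The call in clone A1 was lost with counts taken without regard to strand (adjusted p = 0.076) and when any vector library, replicate B or replicate C of clone A1, or replicate A of clone A4 was left out (adjusted p = 0.058 to 0.15). The mesenchymal genes RUNX2, SPARC and COL1A1 were at 182 CPM or more in every library, and the listed marker TWIST1 was at 0 in all. Whether exons of other genes cover TWIST1 was not examined, so its 0 was not read as a missing RNA. The blood marker PTPRC and the epithelial markers EPCAM and CDH1 lay between 0.400 and 5.58 CPM. CDH1 was at 0.598 to 2.09 CPM in the NCBP2 libraries and at 2.73 to 3.63 CPM in the vector libraries (log2 fold change -0.98, edgeR adjusted p = 0.75). COL1A1 was at 532 to 992 CPM in clone A1 and at 1238 to 1883 CPM in clone A4 (log2 fold change 0.83 for clone A4 against clone A1, adjusted p = 0.36). The part of either in the members' values was not tested.

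Comparison of NCBP2 clones with vector clones asked whether a higher level of the cap-binding protein goes with other levels of these RNAs. No member changed between the 6 NCBP2 libraries and the 3 vector libraries by edgeR's quasi-likelihood test at an adjusted p of 0.05 over all 21682 genes tested. The background was 4 genes called (0.0184%). At an unadjusted p of 0.05 it was 1 of 80 members (1.25%) against 5.71% of all genes. DESeq2, run without edgeR's filter on low counts, called 0 of 112 members with a p-value (0.277% of all genes). It had 1 at the unadjusted level (0.893%, against 4.93% of all genes). The DESeq2 shares here and below are over genes with a p-value. Its own default filter can leave genes with few counts without an adjusted p, and these stand as not called. The median log2 fold change was 0.11 for the members and 0.02 for all genes tested, with 48 members above 0 and 32 below. Without vector replicate C the members' median was -0.03, and without clone A4 replicate C it was -0.01.

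SNORA73B, the U17 RNA that takes part in early cleavage of the ribosomal RNA precursor, was at 137, 152 and 118 CPM in clone A1. Clone A4 gave 74.5, 158 and 212 CPM, and the vector clones gave 155, 227 and 119 CPM. The groups overlapped, with the lowest value in clone A4 replicate A and the highest in vector replicate B. The log2 fold change of NCBP2 against vector was -0.23 (95% confidence interval -0.82 to 0.35, edgeR adjusted p = 1.0), an interval from 0.567 to 1.28 times the vector level, and without vector replicate B it was 0.05.

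SCARNA5, with box C/D and H/ACA domains in 1 RNA, was at 57.5, 43.5 and 26 CPM in clone A1. Clone A4 gave 18.9, 47.4 and 14.0 CPM, and the vector clones gave 21.1, 40.0 and 21.9 CPM. Of the clone A1 libraries, 2 lay above all vector libraries and 1 within their range, while the clone A4 libraries reached above and below all of them. The log2 fold change of NCBP2 against vector was 0.32 (interval -0.55 to 1.18). SCARNA6 from the same host was at 1.41, 1.32 and 2.12 CPM, 1.91, 1.84 and 1.97 CPM, and 0.891, 2.63 and 1.42 CPM in the same order, again with overlap. SCARNA7 in KPNA4 and SCARNA9 in CEP295, box C/D Cajal body RNAs, had log2 fold changes of 0.12 and -0.10. SCARNA10 and SCARNA12 had at most 4 counts in any library and were not tested.

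**Figure D4:**
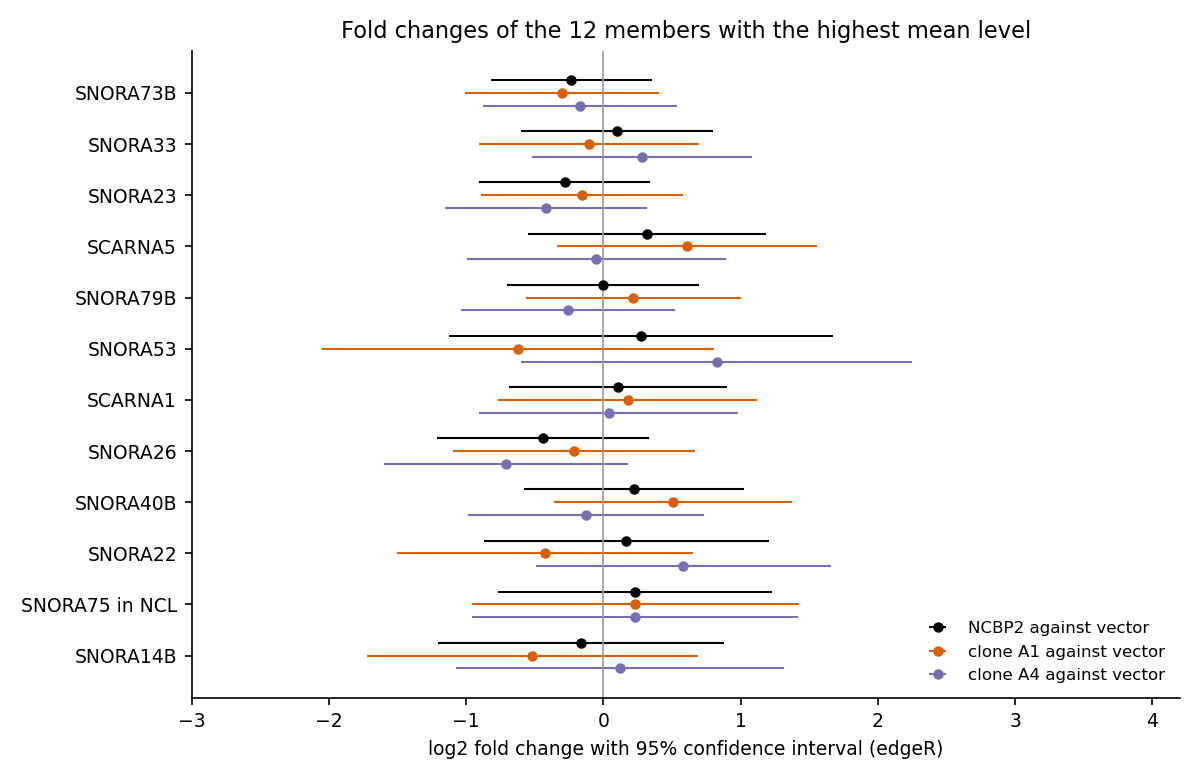
Log2 fold change (x axis) of the 12 members with the highest mean level against the vector libraries, for the 6 NCBP2 libraries together (black), clone A1 (orange) and clone A4 (purple), with 95% confidence intervals from edgeR as bars. Every interval drawn holds 0.

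The intervals set what these libraries could show. For NCBP2 against vector, the 95% interval lay within 1 log2 unit of 0 for 17 of 80 members (21.3%) and for 49.0% of all genes tested. The members' median interval reached 1.08 log2 units to each side, against 0.74 for all genes. Changes of less than about that size were not detectable for most members at this depth and spread. These intervals are not adjusted for the number of genes tested, and passing the adjusted threshold took larger changes. NCBP2 itself, at a log2 fold change of 2.50 in this comparison, had an edgeR adjusted p of 0.12. Among the 12 most abundant members, those with intervals inside 1 log2 unit were SNORA73B, SNORA33, SNORA23, SNORA79B and SCARNA1.

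Clone by clone, no member passed the adjusted threshold either. For clone A1 against vector, 0 of 80 members were called by edgeR (0.0646% of all genes) and 0 had an unadjusted p under 0.05 (7.51% of all genes). DESeq2 called 0 of 113 members (0.631% of all genes), with 3 at that level (2.65%, against 6.16% of all genes). For clone A4 against vector, 0 were called (0.115% of all genes), with 1 at the unadjusted level by edgeR (5.25% of all genes). DESeq2 called 0 of 113 (0.427% of all genes), with 4 at that level (3.54%, against 4.23%). For clone A4 against clone A1, 0 were called (0.161% of all genes), with 3 at the unadjusted level by edgeR (6.63% of all genes). DESeq2 called 0 of 113 (0.615% of all genes), with 5 at that level (4.42%, against 5.88%). The members' median log2 fold changes were 0.09, 0.14 and 0.10, and those of all genes -0.02, 0.03 and 0.04. The members' median in clone A1 was -0.11 without vector replicate C and -0.08 without clone A1 replicate A. In clone A4 it was -0.11 without clone A4 replicate C and -0.02 without vector replicate C, and between clones -0.09 without clone A4 replicate C and -0.01 without clone A4 replicate B. The clone comparisons share the vector libraries.

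Groups that did not overlap were no more common among members than among all genes. For NCBP2 against vector, 1 member of 80 (1.25%) lay apart, against 3.74% of all genes. This was SNORA73 (ENSG00000222145) in RNGTT, another gene under the U17 name. Clone A1 gave 11, 16 and 7 counts, clone A4 gave 10, 22 and 9, and the vector clones gave 7, 7 and 2, and the groups lay apart by CPM. This gene passed the filter on low counts through NCBP2 libraries alone, where it is high. In clone A1 against vector, 5 members (6.25%) lay apart against 14.2% of all genes. In clone A4 against vector it was 6 (7.5%) against 12.1%, and in clone A4 against clone A1 it was 5 (6.25%) against 13.6%. None of them passed the adjusted threshold, and most had few counts.

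SNORA68B had the smallest p-value against vector, both for clone A4 and over both clones. Clone A4 gave 13, 35 and 20 counts and the vector clones 2, 3 and 1, while clone A1 gave 0, 12 and 16. SNORA68B passed the filter on low counts through NCBP2 libraries alone, where it is high, which limits what its p-value can show. Clone A4 lay above the vector libraries, and clone A1 overlapped them through replicate A, with 0. As a share of all gene counts, clone A4 held 11.8 times the vector level, with an exact counting interval of 5.17 to 33.4 that leaves out the spread between libraries. With that spread, the log2 fold change was 3.48 (95% interval 0.59 to 6.38, unadjusted p = 0.022, edgeR adjusted p = 0.75), and over both clones it was 3.04 (unadjusted p = 0.027, adjusted p = 0.78).

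SNORA37, the RNA from MBD2 shown above, was lowest in clone A4. Clone A1 gave 1.30, 1.80 and 1.29 CPM and clone A4 gave 0.939, 0.479 and 0.358 CPM, with 0.997, 1.56 and 1.27 CPM for the empty vector. Clone A4 lay below both other groups, with a log2 fold change of -1.30 against clone A1 (interval -2.46 to -0.14, unadjusted p = 0.031, edgeR adjusted p = 0.68) and -1.10 against vector (adjusted p = 0.98). SNORA79, in GTF2A1, was also lower in each clone A4 library than in any vector library, with a log2 fold change of -0.97 (interval -1.99 to 0.05, adjusted p = 0.98).

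SCARNA14 in TIPIN, an H/ACA Cajal body RNA, was at 1.34, 0.941 and 0.682 CPM in clone A1 against 0.152, 0.585 and 0.244 CPM in the vector libraries. Clone A1 lay above both other groups, since clone A4 reached 0.627 CPM. The log2 fold change of clone A1 against vector was 1.57 (interval -0.03 to 3.18, edgeR adjusted p = 0.67). The host TIPIN was also highest in clone A1, at 23.2 to 39.2 CPM. It was at 17.5 to 22.8 CPM in clone A4 and at 15.1 to 22.7 CPM in the vector libraries. Its log2 fold change in clone A1 against vector was 0.61 (edgeR adjusted p = 0.58). The part of host RNA in the SCARNA14 counts was not tested. SNORA47 in ZBED3 had 0, 7 and 5 counts in clone A1 against 26, 25 and 29 with the empty vector, and 4, 7 and 51 in clone A4. Clone A1 lay below vector (log2 fold change -2.45, interval -5.14 to 0.24, adjusted p = 0.70), and clone A4 held values on both sides of the vector libraries. The host ZBED3 was at 56.7 to 63.5 CPM in clone A1 and at 48.7 to 66.2 CPM in clone A4. The vector libraries held 74.6 to 85.1 CPM of it (log2 fold change -0.42 for clone A1 against vector, edgeR adjusted p = 0.61). The part of host RNA in the SNORA47 counts was not tested. SNORA47 passed the filter on low counts through the vector libraries and clone A4 replicate C.

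SNORA53 differed most between libraries among the 12 abundant members. Clone A1 gave 15.3, 18.2 and 10.3 CPM and clone A4 gave 6.73, 29.2 and 83.5 CPM, with 16, 37.8 and 13.6 CPM for the empty vector. The highest library was 12.4 times the lowest, both from clone A4, and the clones overlapped. Between clones the log2 fold change was 1.45 (interval 0.00 to 2.89, edgeR adjusted p = 0.75), and without clone A4 replicate C it was 0.28. Without the filter on low counts SNORA53 was called between clones (edgeR adjusted p = 1.7e-05). Its host SLC25A3 was at 154 CPM in that library. The host lay at 154 to 204 CPM in the NCBP2 libraries and at 205 to 254 CPM in the vector libraries, without overlap (log2 fold change -0.40, unadjusted p = 0.015, edgeR adjusted p = 0.66).

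**Figure D5:**
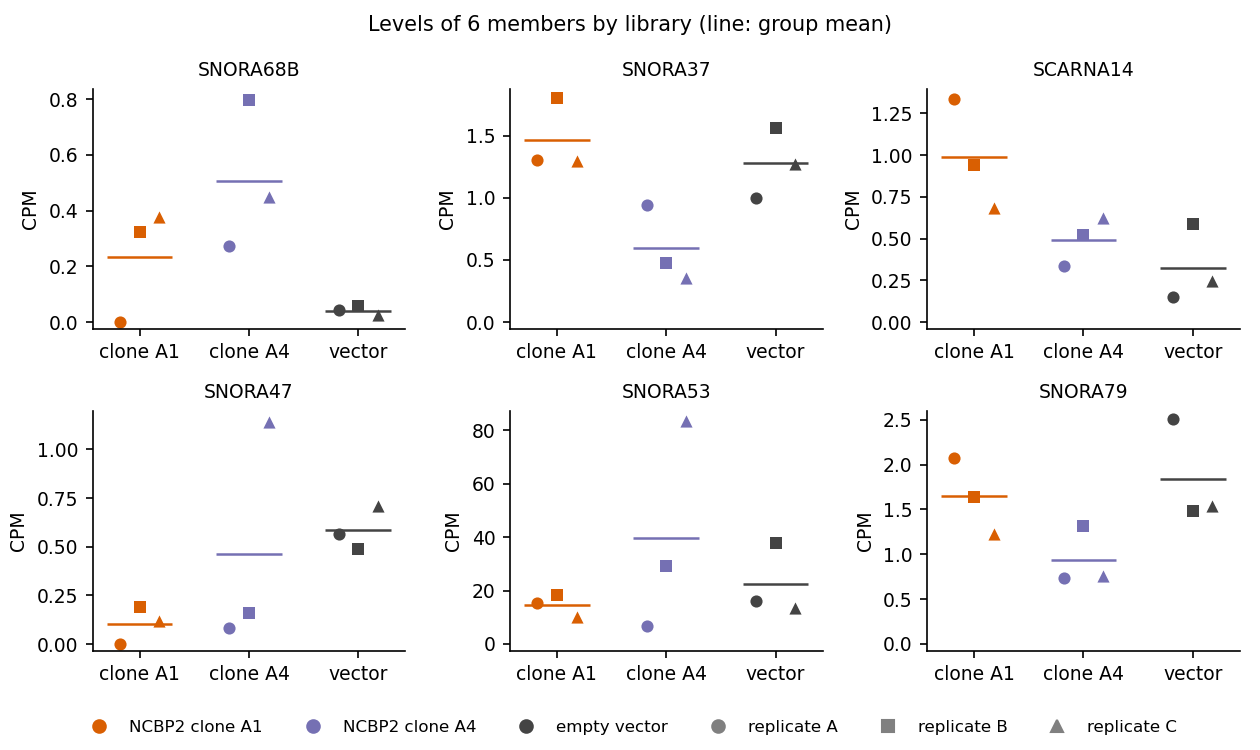
CPM (y axis) of 6 members in each library, with shape for the replicate and a line for the group mean. SNORA68B, SNORA37, SCARNA14, SNORA47 and SNORA79 each had groups that lay apart in at least 1 comparison, while SNORA53 and SNORA47 each had 1 high library, clone A4 replicate C.

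The other members that lay apart in a comparison had wider or smaller differences. Against vector, SCARNA11 in CHD4 (log2 fold change 0.63) was higher and SNORA5C (-1.66) lower in clone A1, and SNORA28 in EIF5 (0.75) and SNORA80B in ODC1 (0.53) were higher in clone A4, each with an interval that held 0. Between the clones, SNORA70E in RAB30 was higher in clone A4 (2.08), and SNORA2A (-1.06) and SNORA24B in PARP16 (-1.13) were lower, again with intervals that held 0.

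Hosts and members are given side by side. For the 71 tested members whose host was tested (68 hosts), the median log2 fold change of NCBP2 against vector was 0.11 for members and -0.02 for hosts, and 38 pairs had the same sign. Across these members, which share libraries and host genes, Pearson's r between the 2 log2 fold changes was 0.13. It was 0.34 for clone A1 against vector (44 pairs of the same sign), 0.09 for clone A4 against vector (34 pairs) and 0.31 for clone A4 against clone A1 (42 pairs). No host was called in any of the 4 comparisons. Among hosts of more than 1 member, RCC1 had a log2 fold change of -0.04, ATG16L1 0.09, KANSL2 0.12 and TBRG4 -0.03.

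The proteins that build, move and trim these RNAs gave few calls. Of 53 genes on 6 lists, all tested, NCBP2 was the only one called by edgeR, in clone A1 and in clone A4 against vector. At an unadjusted p under 0.05 were 3 of the 53 for NCBP2 against vector (5.71% of all genes) and 4 for clone A1 (7.51%). For clone A4 against vector it was 2 (5.25%) and between clones 1 (6.63%), with NCBP2 among them each time. These counts were near or under the shares of all genes, so the genes named below at that level are given as values only. The 4 core proteins had log2 fold changes of NCBP2 against vector of 0.01 (DKC1, the pseudouridine synthase), -0.08 (NOP10), -0.10 (NHP2) and 0.12 (GAR1), and 0 of the 4 had an unadjusted p under 0.05 in any of the 4 comparisons. The same held for the 11 assembly factors, among them NAF1 and SHQ1, and for the 13 genes of 3′ trimming, among them PARN and the exosome subunits. Of the 12 Cajal body proteins, 0 were called and 1 had an unadjusted p under 0.05 in NCBP2 and in clone A4 against vector. This was COIL (coilin, the scaffold of the Cajal body), at 38.9 to 50.8 CPM in clone A4 and 60.3 to 73.0 CPM in the vector libraries. Its log2 fold change in clone A4 was -0.58 (edgeR adjusted p = 0.59). The 4 box C/D core proteins had 0 called and, for NCBP2 against vector, 1 at the unadjusted level, NOP58 (log2 fold change 0.57, edgeR adjusted p = 0.66). In clone A1 against vector 2 were at that level, NOP58 at 0.68 (adjusted p = 0.44) and SNU13 at -0.42 (adjusted p = 0.65). The 9 genes of capped small RNA maturation, among them PHAX and TGS1, had NCBP2 alone called.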

How the data were processed

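RNA from 9 U2-OS libraries was extracted with Direct-zol columns and sequenced after ribosomal RNA removal with KAPA RNA HyperPrep, per the labels' protocols, although the labels' molecule field names polyA RNA. The submitters' processing notes name STAR 2.7.1a and GRCh38, and the annotation is not given in the sources used here. The deposited files hold raw counts of reads per gene, without normalization, and the strand of columns was read from the values. Counts on the gene's own strand were used, 29234022 to 50554080 per library, and the 4 lines that name no gene (44.5% to 63.6% of reads, among them reads with several alignments) were left out.

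Gene names, coordinates, exons and sequences came from GENCODE 44 on GRCh38, which matched 60295 of 60609 identifiers without their version. Of 239 annotated members, 1 was not in the tables. A shared exon was an exon of another gene on the same strand over the member. Copies were searched with BLAST+ 2.17.0. Opposite-strand counts were used only as a check. CPM used TMM-scaled library sizes and, per kb, the gene length.

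Tests were edgeR 4.0.16 (R 4.3.3) quasi-likelihood fits, robust, after filterByExpr with defaults and TMM, with Benjamini-Hochberg adjustment over the 21682 genes tested. A 2-group fit compared the 6 NCBP2 libraries with vector, and a 3-group fit gave the clone comparisons. Alternatives were DESeq2 1.42.0, other scalings, no filter, unstranded counts, a replicate block, summed clones, only the libraries compared, 1-gene symbols, and leaving out each library. Counting intervals are exact at 95% and cover counting error only, since without molecular identifiers PCR copies of a molecule are counted as reads.

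The members, gene lists and tests were chosen with earlier results of these data known. Members named were those past the adjusted threshold, up to 4 per direction with the smallest p among groups that did not overlap, the 12 with the highest mean CPM per kb, listed Cajal body RNAs, SNORA73A and SNORA73B, and hosts of more than 1 named member. SCARNA13, SCARNA15, SCARNA16, SCARNA22, SNORA13, SNORA55, SNORA2B, SNORA5A and SNORA5B, and COIL and NOP58, were named after their values were seen or as partners in a host. The levels of the hosts TIPIN and ZBED3 were given after the values of their members were seen.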

Additional observations from a re-analysis of the deposited data

Results flagged for a closer look

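In 5 of 29 quantities examined, the 6 NCBP2 libraries held 1 value whose gap to the next exceeded Dixon's 95% limit for 6 values (0.625 of the range), and chance flags about 1 in 20 such groups. All 5 were the highest value, in clone A4 replicate C. SNORA53 was at 83.5 CPM there, against 6.73 to 29.2 CPM in the other 5 NCBP2 libraries and 13.6 to 37.8 CPM in the vector libraries. SNORA22 was at 16.1 CPM against 3.10 to 6.89 CPM, SNORA14B at 12.8 CPM against 2.74 to 5.27 CPM, SCARNA7 at 18.4 CPM against 7.77 to 11.3 CPM, and SNORA47 at 1.14 CPM against 0 to 0.188 CPM. The summed level of all members did not exceed the limit in that library. In the same library SCARNA5, at 14.0 CPM, and SNORA79B, at 9.18 CPM, were the lowest of the 6, so the members did not move together there.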

How the results depend on the processing

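The count of members called stayed at 0 in 67 of 68 alternatives over the 4 comparisons. The exception was clone A4 against clone A1 without the filter on low counts, with 1 of 113 members called (0.885%, against 0.612% of all genes), SNORA53 (log2 fold change 1.47, edgeR adjusted p = 1.7e-05); its adjusted p under the other alternatives with the filter on was 0.51 to 1.0, DESeq2 gave 0.66, and the cause was not tested. All 68 alternative medians lay within 1 SD of the libraries' member medians (0.33 log2 units) of the reported one. They ran from -0.03 to 0.26 for NCBP2 against vector, -0.11 to 0.23 for clone A1, -0.11 to 0.37 for clone A4 and -0.09 to 0.29 between clones. That SD is a spread of levels between libraries and is larger than each reported median fold change, so lying within it does not show a stable median. The range held values on both sides of 0 in each comparison. Same-lettered libraries of different groups had deviations that correlated at -0.11 to 0.18 (median 0.14, 6 of 9 pairs over 0.1). Libraries with different letters correlated at -0.27 to 0.23 (median -0.05, 4 of 18 pairs over 0.1). The main fit did not pair the samples by letter, although same-lettered pairs had the higher median. With a replicate block, 0 members were called in each comparison, while genes called went from 4, 14, 25 and 35 to 13, 38, 53 and 51. SNORA79B was then at -0.018 for NCBP2 against vector.
Log2 fold changes near 0 changed sign in NCBP2 against vector. SNORA79B (0.00) was at -0.023 without the filter, -0.047 unstranded and -0.060 with summed clones. Over the left-out libraries the values ran from -0.45 to 0.048 for SNORA73B, -0.18 to 0.38 for SNORA33, -0.45 to 0.014 for SNORA23, -0.25 to 0.11 for SNORA79B, -0.49 to 0.87 for SNORA53, -0.085 to 0.30 for SCARNA1, -0.041 to 0.37 for SNORA40B, -0.29 to 0.61 for SNORA22 and -0.67 to 0.12 for SNORA14B. Genes called differed by tool, with 104, 238, 161 and 232 by DESeq2. Members under about 1 CPM, 28 of 80, rest on few counts.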
